A study of Mus musculus with 16 samples.

Results

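Genes of the aryl hydrocarbon receptor pathway were followed through 2 days of auxin and through its withdrawal in mouse embryonic stem cells. The 7 genes, Cyp1a1, Cyp1b1, Cyp2s1, Tiparp, Nqo1, Arnt and Nfe2l2, were chosen by symbol, and all 7 were found among the 14552 genes of the table. Each averaged 10 or more across libraries, so all 7 were among the 13355 genes tested. The gene of the receptor itself, Ahr, was read beside them. Cyp1a1 and Cyp1b1 were several times higher in every library taken in auxin than in any taken without it, were lowest under auxin at 12 h, and did not pass the test against untreated after withdrawal. The other 5 genes moved by much smaller amounts, at different times and in different directions.

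The cells were E14 embryonic stem cells with the labelled genotype Ddx10-AID, Tir1. DDX10, an RNA helicase, carries an auxin-inducible degron in them, and Tir1 is the plant receptor that marks such a protein for destruction once auxin is added. All groups shared this genotype and a gelatin-coated culture in serum medium with LIF, CHIR99021 and PD0325901. The 8 groups of 2 libraries were untreated cells, cells in 500 µM indole-3-acetic acid for 2, 4, 6 or 12 h, 1 day or 2 days, and cells given 2 days of it and then 2 days without it, called withdrawal here. The sources used here do not give the promoter of Tir1 or how many clones were used. Auxin-treated cells without the degron were not analysed here, so a response to the indole and a response to the loss of DDX10 cannot be told apart in any comparison below. Separate cultures are not stated for the 2 libraries within a group, so p-values reflect only how far these libraries scatter, which may be technical.

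The aryl hydrocarbon receptor is a transcription factor that waits in the cytoplasm, bound to HSP90 and its co-chaperones, until a small planar ligand such as a dioxin or an indole binds it. It then enters the nucleus, pairs with ARNT and binds DNA with the core GCGTG. Its best-known targets are cytochrome P450 genes whose enzymes oxidise such ligands, and TIPARP and AHRR, which damp the receptor in a feedback loop. NFE2L2, also called NRF2, drives the antioxidant response through another DNA element, and Nqo1 is a textbook target of both factors.

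RefSeq promoter windows, from 250 bases before to 50 bases after the start of the gene, matched all 7 genes by symbol (build GRCm38.p6). The RefSeq start of Cyp1a1 lies well inside the longer gene annotated by GENCODE, whose limits are given with its values below, so its window is not at the GENCODE start. Each of the 3 windows below holds the receptor's core, as does that of Arnt, which is not shown. The 3 are those of Cyp1a1 and Cyp1b1, which rose in auxin, and that of Tiparp, the feedback gene, which did not pass as higher at any auxin time. Each is written along the gene's own strand, and capitals mark GCGTG or its reverse complement CACGC. They lie at chr9:57697363-57697662 on the plus strand, chr17:79715012-79715311 on the minus strand and chr3:65528197-65528496 on the plus strand.
Cyp1a1: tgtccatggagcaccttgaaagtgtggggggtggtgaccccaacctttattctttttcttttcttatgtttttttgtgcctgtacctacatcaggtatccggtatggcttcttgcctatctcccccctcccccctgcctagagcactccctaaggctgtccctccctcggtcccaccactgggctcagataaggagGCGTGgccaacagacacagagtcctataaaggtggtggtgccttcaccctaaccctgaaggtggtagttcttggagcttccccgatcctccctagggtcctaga
Cyp1b1: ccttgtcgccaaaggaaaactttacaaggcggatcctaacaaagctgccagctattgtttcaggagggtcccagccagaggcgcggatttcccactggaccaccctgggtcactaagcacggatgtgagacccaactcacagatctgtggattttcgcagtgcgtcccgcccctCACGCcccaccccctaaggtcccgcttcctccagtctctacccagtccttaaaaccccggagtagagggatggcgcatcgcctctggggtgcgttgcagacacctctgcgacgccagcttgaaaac
Tiparp: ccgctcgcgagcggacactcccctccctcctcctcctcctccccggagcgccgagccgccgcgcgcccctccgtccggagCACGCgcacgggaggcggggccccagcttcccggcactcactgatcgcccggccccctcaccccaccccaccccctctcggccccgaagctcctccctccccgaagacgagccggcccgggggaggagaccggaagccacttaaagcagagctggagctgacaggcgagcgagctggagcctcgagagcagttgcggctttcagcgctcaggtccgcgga
With the first base after the start counted as 1 and the last before it as -1, the match began at -54 in Cyp1a1, at -76 on the opposite strand in Cyp1b1 and at -170 on the opposite strand in Tiparp. Arnt also held the core, at -29, while the windows of Cyp2s1, Nqo1 and Nfe2l2 did not. Searched on both strands, GCGTG occurred in 32.4% of all 32851 promoter windows, so its presence is common. The core of the antioxidant response element, TGACNNNGC, occurred in 12.4% of windows. Arnt held it at -127 on the opposite strand and at -50, and Nfe2l2 held it at -240, with no match overlapping one of GCGTG. Distal elements lie outside these windows and were not searched.

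Levels are the deposited normalized read counts, which are not divided by gene length, so each gene is compared between groups and not with other genes. A library held about 13.6 M to 17.5 M reads in genes. The untreated libraries and the 1 day libraries differed more within their group than others did, with a standard deviation of the log2 difference between the 2 libraries over tested genes of 0.62 and 0.53 against 0.37 to 0.41. All 10 embryonic stem cell markers were above 0 in every library, with a summed level between 88153 and 108882, but single markers moved apart. At 2 days Nanog, Klf4, Tfcp2l1 and Tdgf1 were called higher than untreated and Pou5f1, Zfp42, Utf1 and Dppa4 lower. Of 10 fibroblast markers, 4 were in the table and summed to 113 to 198, with single markers moving apart. Fbln2 was called higher than untreated at 12 h, 1 day and 2 days, and Pdgfra at 12 h and 1 day. Thy1 was called lower at 1 day and 2 days. At 12 h 14.8% of all tested genes were called higher, and the shares at 1 day and 2 days are given below. The summed level of 9 primitive endoderm markers was 2850.4 to 3946 in untreated cells, 4464 to 4576 at 12 h, 5453 to 5782 at 1 day, 8726 to 9175 at 2 days and 4349 to 4369 after withdrawal. Of the 7 of them tested, 4 were called higher than untreated at 1 day and 5 at 2 days. Of all tested genes, 15.9% and 21% were called higher at these times. Gata6, Col4a1 and Sparc were called at both, Pdgfra at 1 day, Dab2 and Lamb1 at 2 days, and Gata4 at neither. Gata6 read 1.24 to 24.0 across libraries, while Col4a1, Lamb1 and Sparc read up to 3338, 1250 and 4439. The sum of 8 trophoblast markers was 1803 to 1849 in untreated cells, 1996 to 2332 at 1 day, 2501 to 2600.5 at 2 days and 1719 to 1778 after withdrawal. Of the 7 tested, Tfap2c was called higher than untreated at both 1 day and 2 days, and Eomes and Krt8 lower. Of all tested genes, 17.7% and 23.8% were called lower at these times. The median log2 change of the 7 was -0.15 at 1 day and -0.21 at 2 days, and Tfap2c read up to 1775. The sum of 6 neuroectoderm markers was 1873 to 2812 in untreated cells and 1958 to 2017 at 2 days. Of the 5 tested, Nes and Neurod1 were called higher than untreated at 2 days, and Tubb3 and Map2 lower. Over all auxin times against no auxin, Nes and Neurod1 were called higher and Tubb3 lower (20.6% and 23.4% of all tested genes). Of the markers in the table, Sox17 was at 0 in 2 libraries and Krt7 in 3, and all others were above 0 in every library. These marker levels moved with time in auxin, and their part in the results below was not tested. In bulk RNA a change in the share of cells of a type and a change in RNA per cell cannot be told apart. Ddx10 mRNA was present in every library, between 889 and 2046, which does not check a degron that acts on the protein.

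Cyp1a1 encodes the cytochrome P450 enzyme regarded as the classical readout of the receptor (ENSMUSG00000032315, chromosome 9, 57687928 to 57703824, plus strand, GRCm38). Cyp1a1 read 74.5 and 49.8 in untreated cells, 415 and 328 in the 2 h pair of libraries, 987 and 973 in the 4 h pair and 670.5 and 648 in the 6 h pair. For Cyp1a1 the 12 h pair read 214 and 242, the 1 day pair 502 and 498, the 2 day pair 749 and 813 and the withdrawal pair 75.1 and 38.4. Every auxin library lay above every library without auxin, and the 12 h libraries were the lowest of those in auxin. Against untreated the mean was 5.98-fold higher at 2 h, 15.8-fold at 4 h, 10.6-fold at 6 h, 3.67-fold at 12 h, 8.05-fold at 1 day and 12.6-fold at 2 days. On the log2(value + 1) scale the rise was largest at 4 h, 3.99 (SE 0.25, limma adjusted p = 1.17e-06), and smallest at 12 h, 1.88 (SE 0.25, limma adjusted p = 7.05e-05).

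Cyp1b1 encodes a related P450 that oxidises steroids and polycyclic hydrocarbons (ENSMUSG00000024087, chromosome 17, 79701537 to 79715061, minus strand). Cyp1b1 read 13.6 and 14.2 in untreated cells, 208 and 218 in the 2 h pair of libraries, 226 and 204 in the 4 h pair and 208 and 198 in the 6 h pair. For Cyp1b1 the 12 h pair read 56.5 and 56.2, the 1 day pair 144 and 67.7, the 2 day pair 153 and 166 and the withdrawal pair 13.4 and 13.8. Again the auxin libraries all lay above those without auxin, the 12 h pair was the lowest in auxin, and the 2 libraries of 1 day were far apart. The mean was 15.3-fold, 15.4-fold and 14.6-fold higher than untreated at 2, 4 and 6 h, 4.05-fold at 12 h, 7.62-fold at 1 day and 11.5-fold at 2 days. On the log2(value + 1) scale these changes ran from 1.94 at 12 h (SE 0.27, limma adjusted p = 0.000108) to 3.85 at 4 h (SE 0.27, limma adjusted p = 2.5e-06). The untreated and withdrawal values rest on about 10.9 to 13.9 reads a library, which limits the precision of every fold change of Cyp1b1.

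**Figure D1:**
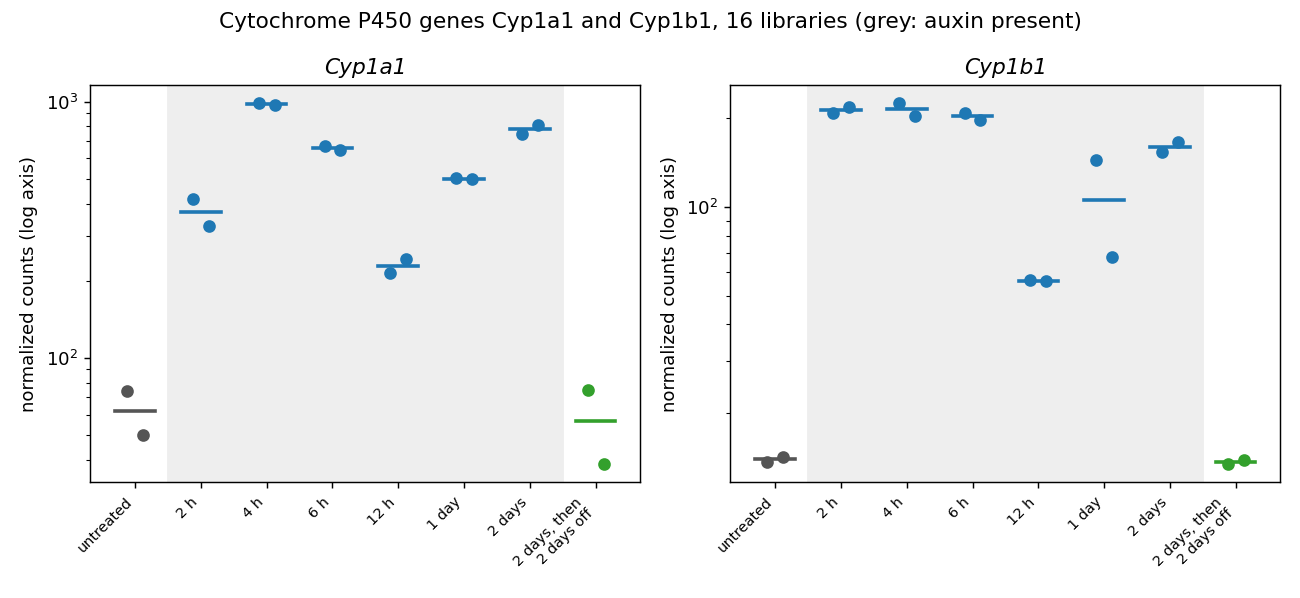
Normalized counts of Cyp1a1 (left) and Cyp1b1 (right) on log axes, by group in time order, with 1 point per library and a bar at the mean of each group. The shaded span marks groups in auxin. All shaded points lie above all others, and both genes are lowest in auxin at 12 h. The means of Cyp1b1 are 213, 215 and 203 at 2, 4 and 6 h, and those of Cyp1a1 371, 980.5 and 659.

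Between 2 h and 4 h a further rise passed the test for Cyp1a1 and not for Cyp1b1, and whether the genes differ in this was not tested. At 2 h Cyp1a1 stood at 37.9% of its highest group mean and Cyp1b1 at 99.4%. From 2 h to 4 h Cyp1a1 rose by a further 1.41 on the log2 scale (SE 0.25, limma adjusted p = 0.00753). That call ended without the second 2 h library (1.24, adjusted p = 0.11) or without either 4 h library (adjusted p = 0.0756 and 0.0794). Cyp1b1 differed by 0.01 between the same times (SE 0.27, limma adjusted p = 0.995). The ratio of Cyp1a1 to Cyp1b1 in a library, which gene length shifts by the same factor throughout, was 1.99 and 1.5 in the 2 h pair and 4.38 and 4.78 in the 4 h pair. Later pairs read 3.22 and 3.27 for 6 h, 3.78 and 4.31 for 12 h, 3.48 and 7.36 for 1 day, and 4.89 and 4.90 for 2 days. The 2 h libraries thus had the lowest ratios of the series, below the 3.51 and 5.46 of untreated cells and the 2.78 and 5.60 after withdrawal, and whether the ratio differs between groups was not tested.

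Between 6 h and 12 h both genes fell, Cyp1a1 by 1.53 (SE 0.25, limma adjusted p = 0.00388) and Cyp1b1 by 1.83 (SE 0.27, limma adjusted p = 0.00239) on the log2 scale. Cyp1a1 was then 23.2% and Cyp1b1 26.3% of its highest group mean. Both rose again from 12 h to 1 day, Cyp1a1 by 1.13 (limma adjusted p = 0.00456) and Cyp1b1 by 0.80 (limma adjusted p = 0.0385). The second rise of Cyp1b1 rests on 1 of the 1 day libraries: without the first it was 0.26 (limma adjusted p = 0.369). It also ended, at adjusted p from 0.0516 to 0.187, when any library of 2, 4, 6 or 12 h or 2 days was left out and when the 2 groups were fitted alone. From 1 day to 2 days the changes of 0.64 for Cyp1a1 and 0.68 for Cyp1b1 did not pass (limma adjusted p = 0.157 and 0.166). Without the first 1 day library, that of Cyp1b1 was 1.22 (limma adjusted p = 0.00366).

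Ordered by level, Cyp1a1 ran from 4 h through 2 days, 6 h, 1 day, 2 h, 12 h and untreated to withdrawal. Of these neighbours 12 h and untreated differed beyond their spread, while the other pairs had limma adjusted p from 0.0568 to 0.772. Cyp1b1 ran from 4 h through 2 h, 6 h, 2 days, 1 day, 12 h and untreated to withdrawal, and there 1 day differed from 12 h and 12 h from untreated. An F-test over the 6 auxin times in limma found that both varied with time in auxin (adjusted p = 8.64e-05 for Cyp1a1 and 0.000177 for Cyp1b1).

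After 2 days of withdrawal both genes had fallen from their 2 day levels, Cyp1a1 by 3.84 (SE 0.25, limma adjusted p = 1.13e-07) and Cyp1b1 by 3.46 (SE 0.27, limma adjusted p = 5.13e-07) on the log2 scale. Their withdrawal libraries overlapped the untreated ones. The difference from untreated was -0.18 for Cyp1a1 (SE 0.25, limma adjusted p = 0.772) and -0.03 for Cyp1b1 (SE 0.27, limma adjusted p = 0.975), which bounds a remaining difference only as closely as these errors allow.

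Set against all tested genes, the P450 changes ranked high early and lower later. By log2 change against untreated, Cyp1b1 ranked 4 and Cyp1a1 13 at 2 h. The same order of genes gave ranks of 4 and 3 at 4 h, and of 5 and 8 at 6 h. At 12 h the ranks were 114 and 133, then 87 and 51 at 1 day, and 57 and 38 at 2 days. Of 13355 genes, 314 (2.35%) had all 12 auxin libraries above all 4 libraries without auxin, Cyp1a1 and Cyp1b1 among them. By the ratio of the lowest auxin library to the highest library without auxin, Cyp1b1 came first at 3.96 and Cyp1a1 next at 2.84. The following genes, Fam83h and Syt12, both had 2.30, and they are named here after their values were seen. Averaged over the 6 auxin times against the mean of untreated and withdrawal, Cyp1a1 was higher by 3.18 (SE 0.14, limma adjusted p = 4.8e-09) and Cyp1b1 by 3.28 (SE 0.16, limma adjusted p = 6.23e-09). Without all 2 to 12 h libraries the same differences were 3.43 and 3.10 (limma adjusted p = 1.7e-05 and 5.88e-05). Their calls in every comparison with untreated up to 2 days, from 6 h to 12 h, from 2 days to withdrawal and over all auxin times held in all alternatives run.

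**Figure D2:**
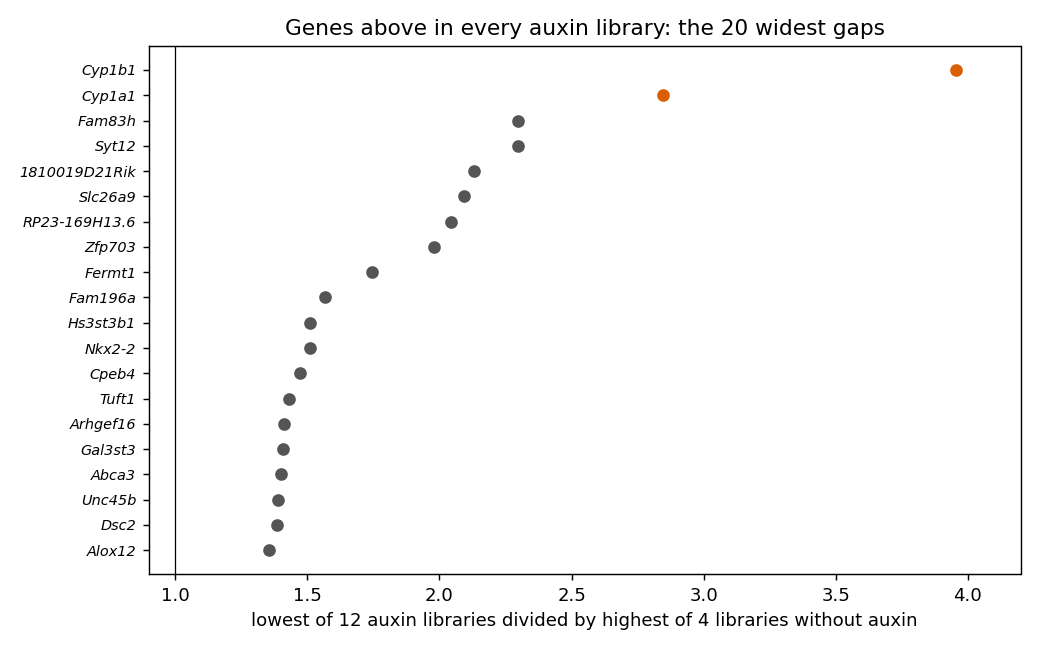
The 20 genes with the widest gap among the 314 whose 12 auxin libraries all lie above the 4 without auxin, with the lowest auxin library divided by the highest library without auxin on the x axis. Cyp1b1 (3.96) and Cyp1a1 (2.84), in colour, lead the list, and a ratio of 1 means no gap.

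Counted over the 7 genes, limma called 3 higher than untreated at 2 h, where 6.75% of all tested genes were called higher. It called 4 higher at 4 h (8.86% of all genes), 3 at 6 h (10.9%) and 4 at 12 h (14.8%). At 1 day 2 were higher and 1 lower (15.9% and 17.7% of all genes), and at 2 days 3 were higher and 1 lower (21% and 23.8%). These comparisons share the untreated libraries, so they are not independent. Withdrawal against untreated called 1 gene, higher (1.72%), and withdrawal against 2 days called 2 higher and 3 lower (22.2% and 19.1%). Between successive times 1 gene was higher at 4 h than at 2 h (1.77%), 3 were lower at 12 h than at 6 h (4.31%) and 2 were higher at 1 day than at 12 h (16.6%). In limma 0 of the 7 passed between 4 h and 6 h (0.0374% of all genes passed) and 0 between 1 day and 2 days (5.65%), where 1 and 3 of the 7 had an unadjusted p under 0.05. Auxin against no auxin called 3 higher and 1 lower (20.6% and 23.4%), and 4 of the 7 differed among the auxin times (59.9%). None of the 7 had all libraries of 2 to 12 h above (3.17% of all genes) or below (4.43%) all others. Of the 7, Cyp1a1 and Cyp1b1 were called in all 6 comparisons of auxin with untreated, and no other gene in more than 3.

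**Figure D3:**
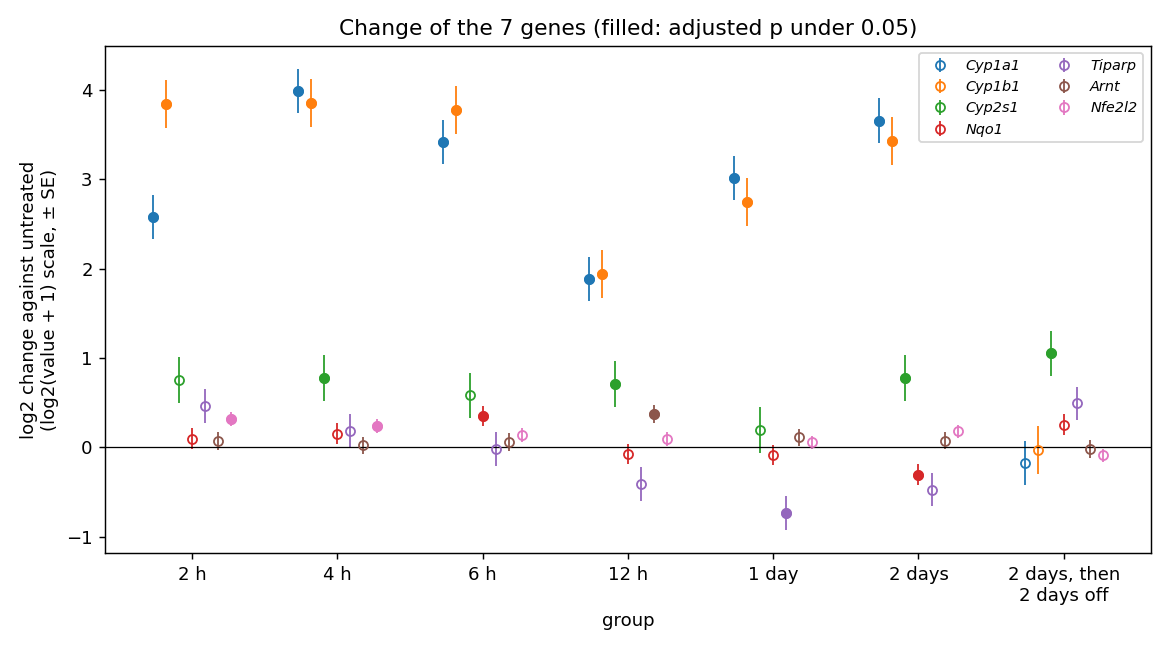
Log2 change against untreated on the log2(value + 1) scale, with its standard error, for the 7 genes in each of the other 7 groups. Filled points have an adjusted p under 0.05. Cyp1a1 and Cyp1b1 lie between 1.88 and 3.99 in auxin and near 0 after withdrawal, and the other 5 genes stay between -0.74 and 1.05.

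Tiparp encodes a mono-ADP-ribosyltransferase that modifies the receptor and limits its action (ENSMUSG00000034640, chromosome 3, 65528410 to 65555518, plus strand). Tiparp read 685 and 938 in untreated cells, 1118 and 1089.6 in the 2 h pair of libraries, 946 and 871 in the 4 h pair and 782 and 802 in the 6 h pair. For Tiparp the 12 h pair read 564 and 645, the 1 day pair 620.4 and 371, the 2 day pair 588 and 566 and the withdrawal pair 1151 and 1103. The 2 h libraries and the withdrawal libraries lay above both untreated ones, and those of 12 h, 1 day and 2 days lay below both. At 2 h the difference from untreated was 0.46 (SE 0.19, limma adjusted p = 0.115) on the log2 scale, with untreated libraries that were far apart. Without the second untreated library it was 0.69 (limma adjusted p = 0.0412), and without either 1 day library 0.46 passed at adjusted p = 0.0189 and 0.0187.

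Tiparp was lower than untreated at 1 day by a log2 difference of -0.74 (SE 0.19, limma adjusted p = 0.00826). That call ended without the second 1 day library (-0.37, adjusted p = 0.0838), without the second untreated library (-0.51, adjusted p = 0.0907), with the 2 groups alone (adjusted p = 0.132) and without all 2 to 12 h libraries (adjusted p = 0.0533). Tiparp differed among the auxin times (limma adjusted p = 0.000791). From 2 days to withdrawal it rose by 0.96 (SE 0.19, limma adjusted p = 0.0011), opposite in sign to Cyp1a1 and Cyp1b1, and that call held in all 27 alternatives. Withdrawal differed from untreated by 0.49 (limma adjusted p = 0.188), and without either or both 1 day libraries the adjusted p was 0.0391 to 0.0398. Over all auxin times it was lower than without auxin by -0.41 (SE 0.11, limma adjusted p = 0.00749), a call that ended without the second untreated library (-0.30). Here the group without auxin includes withdrawal, where the mean of Tiparp was highest (1127, against 811 in untreated cells). Against untreated alone, 1 day was the only auxin time called. The annotated exons of Tiparp share 223 bases with 4931440P22Rik on the other strand, and whether the counting used strand is not given in the sources used here.

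Nqo1 encodes a quinone reductase of the detoxification response (ENSMUSG00000003849, chromosome 8, 107388225 to 107403206, minus strand). Nqo1 read 895 and 945 in untreated cells, 1005 and 964 in the 2 h pair of libraries, 1014 and 1034 in the 4 h pair and 1181 and 1165 in the 6 h pair. For Nqo1 the 12 h pair read 881 and 865, the 1 day pair 740.1 and 1016, the 2 day pair 774 and 715 and the withdrawal pair 1126 and 1066. The 6 h libraries were the highest and the 2 day libraries and the first 1 day library were the lowest. Nqo1 rose against untreated at 6 h by 0.35 (SE 0.12, limma adjusted p = 0.0427) and fell at 2 days, with a log2 change of -0.30 (SE 0.12, limma adjusted p = 0.0471). It also fell from 6 h to 12 h, by 0.43 (limma adjusted p = 0.0453). These 3 calls were at the edge of the threshold. They ended in 16 of 26, 18 of 27 and 14 of 26 alternatives, including without any single library of the groups compared, with adjusted p up to 0.163, 0.217 and 0.203. The rise from 2 days to withdrawal, 0.56 (SE 0.12, limma adjusted p = 0.00182), held in all 27.

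Cyp2s1 encodes a P450 of epithelial tissues that dioxin is known to induce (ENSMUSG00000040703, chromosome 7, 25802475 to 25816913, minus strand). Cyp2s1 read 61.6 and 59.9 in untreated cells, 109 and 97.6 in the 2 h pair of libraries, 108 and 102 in the 4 h pair and 84.6 and 98.5 in the 6 h pair. For Cyp2s1 the 12 h pair read 97.3 and 103, the 1 day pair 51.1 and 94.97, the 2 day pair 96.7 and 114 and the withdrawal pair 109 and 147. Except for the first 1 day library, every later library lay above both untreated ones, and the second withdrawal library was the highest of the series. Cyp2s1 rose against untreated at 4 h (0.77, SE 0.26, limma adjusted p = 0.0496), 12 h (0.71, adjusted p = 0.0476), 2 days (0.78, adjusted p = 0.0239) and withdrawal (1.05, adjusted p = 0.046). The change was 0.76 at 2 h and 0.58 at 6 h (limma adjusted p = 0.0622 and 0.117). The calls ended in 17 of 26, 16 of 26, 5 of 27 and 16 of 27 alternatives, with adjusted p up to 0.199, 0.167, 0.137 and 0.306. Removing either library of untreated or of 4 h, 12 h or withdrawal ended the call of that group, and for 2 days either untreated library or the second 2 day library did. With withdrawal in the group without auxin, auxin against no auxin gave 0.11 (limma adjusted p = 0.587). The exons share 260 bases with Gm26707 on the other strand.

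**Figure D4:**
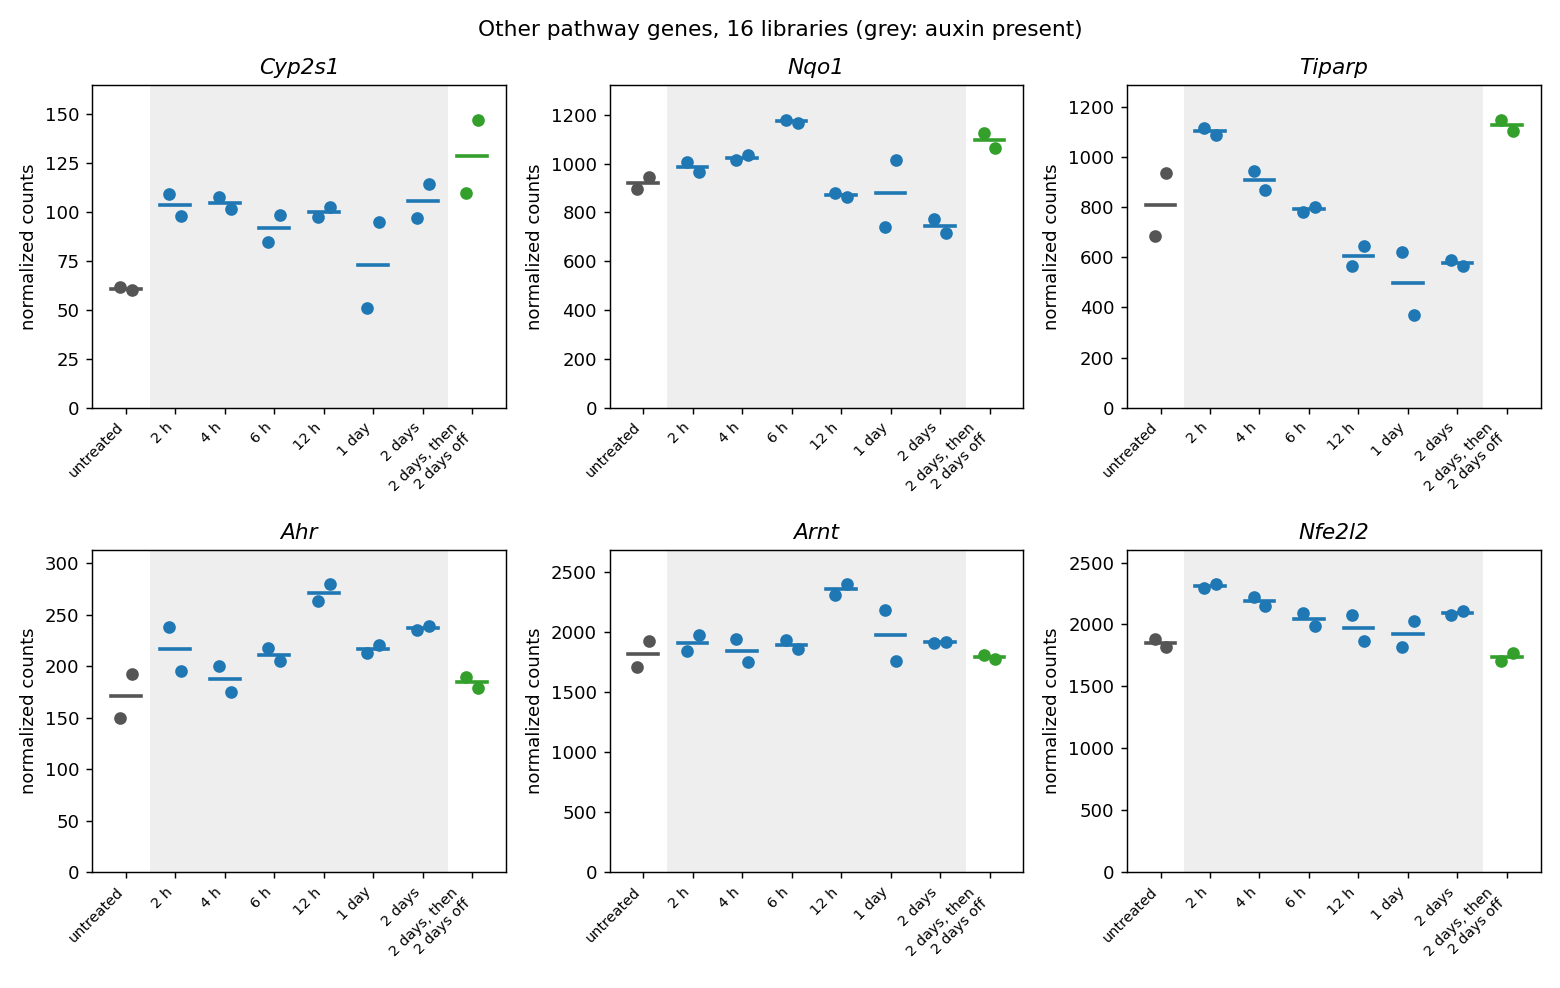
Normalized counts of Cyp2s1, Nqo1, Tiparp, Ahr, Arnt and Nfe2l2 by group in time order, on linear axes from 0, with 1 point per library and a bar at the group mean. The shaded span marks groups in auxin. Tiparp is high at 2 h and after withdrawal and low from 12 h to 2 days, and Ahr and Arnt are highest at 12 h.

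The receptor gene Ahr (ENSMUSG00000019256, chromosome 12, 35497974 to 35535038, minus strand) read 149 and 193 in untreated cells, 238 and 195 in the 2 h pair of libraries, 201 and 175 in the 4 h pair and 218 and 205 in the 6 h pair. For Ahr the 12 h pair read 263 and 279.8, the 1 day pair 213 and 220.3, the 2 day pair 236 and 239.6 and the withdrawal pair 189.5 and 179. The 12 h libraries, where Cyp1a1 and Cyp1b1 were lowest in auxin, were the highest for Ahr. It was called higher than untreated at 12 h (0.67, SE 0.15, limma adjusted p = 0.00405) and 2 days (0.48, adjusted p = 0.0203). The 12 h call held in all alternatives run. The exons of Ahr share 127 bases with Gm48236 on the other strand. That at 2 days ended without the first untreated library (0.30, adjusted p = 0.157), without either 2 day library (adjusted p = 0.0706 and 0.0861), after removing a trend on gene length and GC content (0.30, adjusted p = 0.133), with the 2 groups alone (adjusted p = 0.113) and without all 2 to 12 h libraries (adjusted p = 0.07).

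Arnt encodes the DNA-binding partner of the receptor (ENSMUSG00000015522, chromosome 3, 95434388 to 95497240, plus strand). Arnt read 1716 and 1928 in untreated cells, 1847 and 1975 in the 2 h pair, 1948 and 1750.3 in the 4 h pair and 1935 and 1859 in the 6 h pair. For Arnt the 12 h pair read 2315 and 2401, the 1 day pair 2188 and 1763, the 2 day pair 1910.1 and 1923 and the withdrawal pair 1813 and 1782. The 12 h libraries stood above all others. Arnt rose against untreated at 12 h by 0.37 (SE 0.10, limma adjusted p = 0.00954), and the call ended without the second 12 h library (0.35, adjusted p = 0.0644) or the first untreated one (0.29, adjusted p = 0.0751). The step from 6 h to 12 h was 0.31 (limma adjusted p = 0.0754).

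Nfe2l2, which encodes NRF2 (ENSMUSG00000015839, chromosome 2, 75675513 to 75704641, minus strand) read 1883 and 1816 in untreated cells, 2292 and 2324 in the 2 h pair of libraries, 2223 and 2149.6 in the 4 h pair and 2090.4 and 1991 in the 6 h pair. For Nfe2l2 the 12 h pair read 2079.5 and 1864, the 1 day pair 1816 and 2032, the 2 day pair 2079 and 2106 and the withdrawal pair 1702 and 1772. It was highest at 2 h, and the withdrawal libraries were the lowest of the series. Nfe2l2 rose at 2 h by 0.32 (SE 0.08, limma adjusted p = 0.0138) and at 4 h by 0.24 (SE 0.08, limma adjusted p = 0.0417). The 2 h call ended without either 2 h library (adjusted p = 0.0648 and 0.103) and with the 2 groups alone (adjusted p = 0.0868), and the 4 h call ended in 14 of 26 alternatives, with adjusted p up to 0.202. From 2 days to withdrawal it fell by 0.27 (limma adjusted p = 0.0123), a call that ended without the second 2 day library (adjusted p = 0.0658), the first withdrawal library (adjusted p = 0.0837) or all 2 to 12 h libraries (adjusted p = 0.057). Over all auxin times it was higher by 0.22 (SE 0.04, limma adjusted p = 0.00135), and without the 2 to 12 h libraries this was 0.16 (adjusted p = 0.0763).

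Genes most like each of the 7 were sought by the Pearson correlation of log2(value + 1) over the 16 libraries, which share one scaling. For Cyp1a1 these were Fam196a (r = 0.96), Cyp1b1 (0.94) and Fam83h (0.94), out of 7654 genes. For Cyp1b1 they were Srcap (0.94), Cyp1a1 (0.94) and Fam83h (0.93). Fam196a went from a mean of 28.5 in untreated to 79.7, 88.8, 107, 54.5, 78.1 and 82.8 through the auxin times and to 26.9 after withdrawal, with its lowest auxin value at 12 h like the P450 genes. Srcap also had its lowest auxin mean at 12 h (4585), but Fam83h had it at 1 day (331, against 386 at 12 h). For Tiparp the most alike were Pde4d (0.94), Lgr4 (0.93) and Xrcc5 (0.93), and for Arnt Wasf3 (0.93), Marf1 (0.91) and Fyco1 (0.91). For Nfe2l2 they were Prkab2 (0.90), Ahnak (0.89) and Lrrc58 (0.84), for Nqo1 Mzf1, Btbd11 and Slc9a3r2 (0.86 each), and for Cyp2s1 Dio3 (0.82), Anxa2 (0.79) and Sh3rf1 (0.78). Between the 7 genes themselves, Cyp1a1 and Cyp1b1 correlated at 0.94 and Cyp1b1 and Nfe2l2 at 0.80, while Tiparp correlated with Cyp1a1 at -0.34 and with Cyp1b1 at -0.11.

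Lists of other pathway genes were read for auxin against no auxin, where 20.6% of all tested genes were higher and 23.4% lower, with a median of 0.00. Of 14 genes of the receptor complex and its cofactors, 3 were higher and 3 lower, with a median of 0.02. Those higher were Ahr, Ahrr and Crebbp, a histone acetyltransferase, and those lower were the chaperones Hsp90aa1 and Hsp90ab1 and the co-chaperone Ptges3. Ahr was higher by 0.33 (SE 0.09, limma adjusted p = 0.00883). Its call ended without the first untreated library (0.23) and without the 2 to 12 h libraries (0.36, limma adjusted p = 0.052). Hsp90ab1 stood at 128483 ± 3438 (SD, n = 2) in untreated cells and 127169 ± 476 at 6 h, at 100752 ± 324 at 12 h and 93654 ± 466 at 2 days, and at 126423 ± 3769.7 after withdrawal. Crebbp went from 1122 ± 65.6 to 1635 ± 4.89 at 2 h and 1798 ± 53.5 at 2 days (SD, n = 2), and it was higher than untreated at both by 0.54 and 0.68 (limma adjusted p = 0.0013 and 2.48e-05).

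Ahrr, the receptor's repressor and a classical target, was low and uneven between libraries. Ahrr read 10.4 and 23.0 in untreated cells, 26.4 and 64.7 in the 2 h pair of libraries, 52.1 and 101.5 in the 4 h pair and 37.7 and 45.9 in the 6 h pair. For Ahrr the 12 h pair read 11.2 and 31.1, the 1 day pair 40.3 and 25.4, the 2 day pair 22.7 and 39.7 and the withdrawal pair 18.8 and 10.6. Like Cyp1a1 its mean was highest at 4 h, and the libraries of both 12 h and 2 days overlapped the untreated ones. It rose against untreated at 4 h by 2.16 (SE 0.58, limma adjusted p = 0.0199) and over auxin times by 1.24 (limma adjusted p = 0.00842). The 4 h call ended without the first untreated library (1.62, adjusted p = 0.121), without the second 4 h library (1.68, adjusted p = 0.151) and with the 2 groups alone (adjusted p = 0.0629). The call over auxin times ended without the first untreated library (0.97, adjusted p = 0.0544), the second withdrawal library (1.05, adjusted p = 0.0546) or the 2 to 12 h libraries (1.02, adjusted p = 0.0562).

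Of 19 other known receptor targets, 8 were in the table and tested, and 3 were higher and 3 lower, with a median of -0.08. Besides Ahrr, Aldh1a3 and Nedd9 were higher, and Abcg2, an efflux transporter, Slc7a5, an amino acid transporter, and Socs2, a cytokine-signalling inhibitor, were lower. Against untreated, Aldh1a3 was called higher at 2, 4 and 6 h and 2 days, and Aldh3a1 at 1 day and 2 days. At 2 days 2 of the 8 were thus higher and 3, Ido2, Slc7a5 and Abcg2, lower (21% and 23.8% of all genes). From 2 days to withdrawal Aldh3a1 fell, and Slc7a5 and Abcg2 rose (19.1% and 22.2% of all genes). By group mean, Slc7a5 read 6874 at 2 h against 6409 in untreated cells, and it was called lower at 12 h, 1 day and 2 days. Socs2 read 850 at 2 h and 712 at 2 days against 730 in untreated cells. Over auxin times Abcg2 was lower by -0.48 and Slc7a5 by -0.32 (limma adjusted p = 5.14e-05 and 0.000123). Socs2 was lower by -0.34 (limma adjusted p = 0.0121), a call that ended without the second untreated library (-0.24) or the second withdrawal library (-0.31). The group without auxin includes withdrawal, where the mean of Socs2 was highest (876). Against untreated alone, Socs2 was called lower at 1 day and at no other auxin time.

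Of 29 other NFE2L2 targets tested out of 32, 15 were lower in auxin and 3 higher, with a median of -0.14. Across the alternatives 11 to 16 were lower, and after removing the trend on gene length and GC content 12 were lower and the median was -0.07. At 2 days 13 were lower and 3 higher than untreated, where 23.8% and 21% of all genes were, and from 2 days to withdrawal 12 rose and 2 fell, where 22.2% and 19.1% did. Without the second 2 day library 8 rose. Txn1, which encodes thioredoxin, was at 6837 and 6049 in untreated, between 3374 and 5550.1 in the auxin libraries and at 6652 and 6201 after withdrawal, with no overlap between auxin and no auxin. It was lower over auxin times by -0.70 (SE 0.05, limma adjusted p = 4.16e-07). The pentose phosphate enzymes G6pdx (-0.57), Pgd (-0.41) and Tkt (-0.41) were also lower and without overlap (limma adjusted p = 5.92e-06, 3.32e-06 and 1.4e-06). Of 13355 genes, 630 (4.72%) had all auxin libraries below all others.

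Of 10 partners and regulators of NFE2L2, 3 were higher and 2 lower, with a median of 0.03 that became -0.07 after that trend was removed, -0.03 with a mean of at least 50 required and -0.05 without the 2 to 12 h libraries. Bach1, a repressor that competes with NFE2L2 for its DNA element, was at 350.4 and 433 in untreated, 774 and 721 at 2 h, and 483 to 612 at later auxin times. It was still at 584 and 572 after withdrawal. Its rise at 2 h was 0.94 (SE 0.13, limma adjusted p = 0.000516), and withdrawal was above untreated by 0.57 (limma adjusted p = 0.0313). The withdrawal call ended without the first untreated library (0.42, adjusted p = 0.0824), either withdrawal library (adjusted p = 0.176 and 0.139), either 12 h library (adjusted p = 0.0527 and 0.0524), with the 2 groups alone (adjusted p = 0.332) and without the 2 to 12 h libraries (adjusted p = 0.225). Over auxin times Bach1 was higher by 0.31, Mafk by 0.38 and Mafg by 0.19, both small MAF proteins, and Rbx1, of the ligase that destroys NFE2L2, lower by -0.39 (limma adjusted p = 0.00374, 0.0131, 0.00352 and 5.23e-06). Mafg ended after removal of that trend (0.04, adjusted p = 0.558), Mafk without the second untreated library (0.30, adjusted p = 0.0593), and Bach1, Mafk and Mafg without the 2 to 12 h libraries (adjusted p = 0.123, 0.173 and 0.149).

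**Figure D5:**
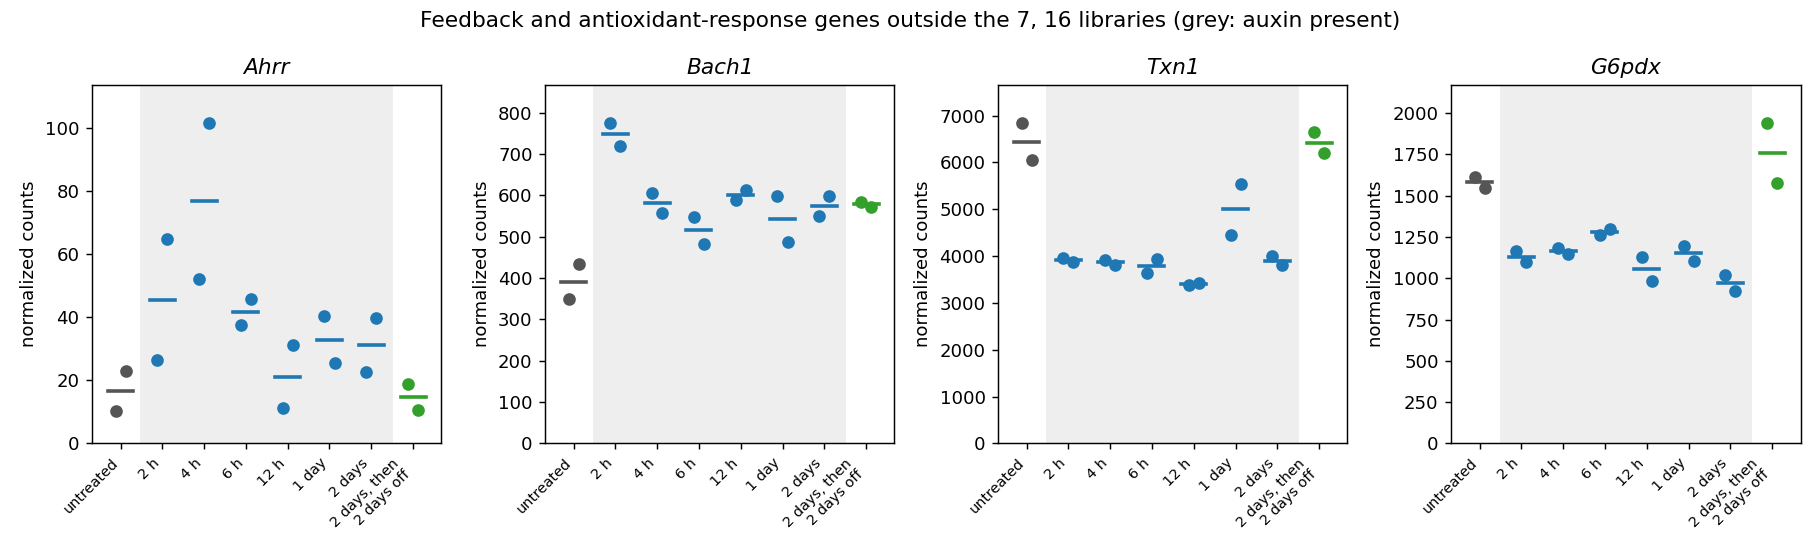
Normalized counts of Ahrr, Bach1, Txn1 and G6pdx by group in time order, on linear axes from 0, with 1 point per library and a bar at the group mean. The shaded span marks groups in auxin. the mean of Ahrr is highest at 4 h with libraries far apart, both Bach1 libraries after withdrawal lie above both untreated ones, and Txn1 and G6pdx are lower in every auxin library.

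Of 10 other genes listed as partners or relatives of ARNT, 5 were in the table, with a median of 0.11. Of these 1, Epas1, was called over auxin times. Epas1, a hypoxia-inducible factor, was lower in auxin by -0.47 (limma adjusted p = 0.000205), where the group without auxin includes withdrawal. Against untreated it was higher by 1.09 at 2 days and by 1.72 after withdrawal (limma adjusted p = 1.66e-05 and 5.46e-05). The call over auxin times ended without the 2 to 12 h libraries (-0.27, adjusted p = 0.0864), and that after withdrawal ended with the 2 groups alone (adjusted p = 0.15). Clock, Hif1a and Arntl gave 0.16, 0.11 and -0.10 (limma adjusted p = 0.0641, 0.0766 and 0.198).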

How the data were processed

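The data are 16 mRNA libraries of 1 cell line in 8 labelled groups of 2. The authors' deposited table holds a signal, by its name normalized gene counts. Its values are fractional, and library totals ran from 14871900 to 16900700. Trim Galore, STAR, RSEM, DESeq2 and mm10 are named per the submitters' processing notes. Their roles, the annotation, strand use and gene filter: not given in the sources used here.

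Tests used log2(value + 1), a scale that understates changes of low genes. After a filter (mean of 10 or more), limma 3.58.1 (R 4.3.3) was fitted with 1 coefficient per group, an intensity trend and 8 residual degrees of freedom. Benjamini-Hochberg adjustment ran over all tested genes in each of 15 comparisons, and a call is an adjusted p under 0.05. The median SE over genes was 0.158 for 2 groups. Depth was estimated from the step between low values (up to 20 steps) of the 1884 genes with 1 transcript, 603 to 753 values a library. Of these values 72.6% to 99% lay within 0.1 of a whole multiple, against 35.8% to 44.4% in other genes. Reads were therefore not recovered for all genes. Coordinates come from GENCODE M21 (GRCm38), which held 14467 of the identifiers and lacked 85.

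The 7 genes and the lists were chosen with earlier results of these data known. Named were the 7 genes and Ahr, up to 4 genes per list with the smallest p for auxin against no auxin, and the 3 genes closest in pattern, without predicted or clone names, among those with a mean of 50 or more and group means spanning 0.5 or more on the log2 scale. Other list members are named only to account for a count. The alternatives were 2 rescalings, pseudocounts of 0.5 and 5, other filters, replicate as a block, the compared groups alone, removal of a length and GC trend, and each library left out in turn. Leaving out both 1 day libraries, or all of 2 to 12 h, was added after the data were seen. The scripts were tested on simulated data.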

Additional observations from a re-analysis of the deposited data

Results flagged for a closer look

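Differences between successive times in auxin passed the test for 3 of the 7 genes (limma, Benjamini-Hochberg adjustment over all genes). Cyp1a1 differed between 2 h and 4 h by 1.41 on the log2 scale, higher at 4 h in both libraries, a call that ended without the second 2 h library or either 4 h library (adjusted p = 0.11, 0.0756 and 0.0794). It also differed between 6 h and 12 h by -1.53 and between 12 h and 1 day by 1.13. Cyp1b1 differed between 6 h and 12 h by -1.83 and between 12 h and 1 day by 0.80, the latter resting on the first 1 day library. Nqo1 differed between 6 h and 12 h by -0.43, a call that ended in 14 of 26 alternatives. No single library was tested for standing apart within its group, since groups have 2 libraries.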

How the results depend on the processing

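The precision is limited by 2 libraries a group and, for Cyp1b1 and Ahrr, by few reads without auxin. Of 3120 gene results under alternatives, 2848 kept their direction and side of the threshold, 153 lost a call, 76 gained one and 43 changed sign, none of the last being called in the fit of all libraries. Numbers called among the 7 genes changed by over 1.5 times under these settings, and the cause was not tested. With the compared groups alone, 2 were called at 4 h, 2 at 2 days, 0 in withdrawal against untreated, 1 from 4 h to 6 h, 5 from 6 h to 12 h and 1 from 12 h to 1 day. With the length and GC trend removed, 5 were called from 12 h to 1 day. Without both 1 day libraries, 5 were called at 2 h and 2 in withdrawal against untreated. Without the 2 to 12 h libraries, 2 were called at 2 days and 0 in withdrawal against untreated. With 1 library left out in turn, the lowest and highest numbers called, whether or not they moved by that much, were 2 to 5 (2 h against untreated), 2 to 4 (4 h against untreated), 2 to 4 (6 h against untreated), 2 to 5 (12 h against untreated), 2 to 4 (1 day against untreated), 2 to 6 (2 days against untreated), 0 to 2 (withdrawal against untreated), 4 to 5 (withdrawal against 2 days), 0 to 1 (4 h against 2 h), 0 to 0 (6 h against 4 h), 2 to 4 (12 h against 6 h), 1 to 3 (1 day against 12 h), 0 to 3 (2 days against 1 day), 4 to 6 (auxin against no auxin), 4 to 7 (difference among auxin times); a group left with 1 library is then assumed to vary like the others.

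Over all genes, the compared groups alone gave 408 calls at 2 h, 731 at 4 h, 1411 at 6 h, 2901 at 12 h, 1219 at 1 day, 1 in withdrawal against untreated, 694 from 2 h to 4 h, 77 from 4 h to 6 h, 2326 from 6 h to 12 h, 1685 from 12 h to 1 day and 0 from 1 day to 2 days. With the trend removed, 613 were called in withdrawal against untreated and 17 from 4 h to 6 h. Without the 1 day libraries these were 673 and 43, with 574 from 2 h to 4 h and 1405 from 6 h to 12 h. Without the 2 to 12 h libraries, 2924 were called at 1 day, 15 in withdrawal against untreated and 48 from 1 day to 2 days. With 1 library left out in turn, the numbers beside those of the fit of all libraries were 501 to 2895 against 2030 (2 h and untreated), 926 to 3362 against 2548 (4 h and untreated), 1607 to 3966 against 3253 (6 h and untreated), 2831 to 5159 against 4422 (12 h and untreated), 3666 to 4691 against 4484 (1 day and untreated), 4466 to 6546 against 5985 (2 days and untreated), 67 to 1106 against 373 (withdrawal and untreated), 3901 to 6103 against 5516 (withdrawal and 2 days), 97 to 569 against 327 (4 h and 2 h), 0 to 44 against 5 (6 h and 4 h), 136 to 1404 against 866 (12 h and 6 h), 1974 to 4728 against 4063 (1 day and 12 h), 206 to 1526 against 754 (2 days and 1 day), 4589 to 6487 against 5877 (auxin and no auxin), 6868 to 8753 against 8001 (difference among auxin times).

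With values rescaled by upper quartiles, the sign turned to give Tiparp 6 h against untreated 0.033, Arnt withdrawal against untreated 0.0052, Arnt 2 days against 1 day 0.0067. With length and GC trend removed, the sign turned to give Arnt 4 h against untreated -0.012, Nqo1 12 h against untreated 0.20, Nfe2l2 1 day against untreated -0.016, Arnt 2 days against untreated -0.067, Arnt withdrawal against 2 days 0.015, Cyp2s1 4 h against 2 h -0.11, Nqo1 auxin against no auxin 0.083. With all 2 to 12 h libraries left out, the sign turned to give Cyp2s1 auxin against no auxin -0.038. With 1 library left out in turn, these log2 changes crossed 0. Ahr ranged from -0.041 to 0.33 (4 h against untreated), -0.066 to 0.30 (withdrawal against untreated). Arnt ranged from -0.045 to 0.27 (1 day against untreated), -0.19 to 0.12 (2 days against 1 day), -0.0086 to 0.16 (2 days against untreated), -0.014 to 0.15 (2 h against untreated), -0.13 to 0.029 (4 h against 2 h), -0.062 to 0.11 (4 h against untreated), -0.038 to 0.12 (6 h against 4 h), -0.023 to 0.14 (6 h against untreated), -0.10 to 0.067 (withdrawal against untreated). Cyp1a1 ranged from -0.65 to 0.30 (withdrawal against untreated). Cyp1b1 ranged from -0.067 to 0.081 (4 h against 2 h). Cyp2s1 ranged from -0.24 to 0.64 (1 day against untreated), -0.062 to 0.099 (4 h against 2 h). Nfe2l2 ranged from -0.12 to 0.046 (1 day against 12 h), -0.027 to 0.14 (1 day against untreated), -0.13 to 0.028 (12 h against 6 h). Nqo1 ranged from -0.24 to 0.22 (1 day against 12 h), -0.31 to 0.14 (1 day against untreated), -0.45 to 0.0082 (2 days against 1 day). Tiparp ranged from -0.70 to 0.041 (1 day against 12 h), -0.10 to 0.64 (2 days against 1 day), -0.047 to 0.41 (4 h against untreated), -0.24 to 0.21 (6 h against untreated).

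The replicate number did not pair the libraries: the correlation of the deviations of same-numbered libraries ran from -0.061 to 0.066 over 28 pairs of groups, 0 of them over 0.1. With the number as a replicate block, Nfe2l2 at 4 h (adjusted p = 0.0517) and Nqo1 at 6 h, at 2 days and from 6 h to 12 h (adjusted p = 0.0512, 0.0555 and 0.0574) were not called in limma.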
